A study of Mus musculus with 12 samples.

Results

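The results below concern 10 genes of the BCL2 family, chosen by name as guardians and BH3 genes and followed across the 4 groups of one RNA-seq count table. Earlier results of these data were known at the choice, so counts of called members beside all tested genes are not independent of it. They are 10 of 57180 rows of that table, and all 10 were among the 14362 genes that passed the filter on low counts. The guardians are Mcl1, Bcl2l1 (BCL-XL), Bcl2l2 (BCL-W) and Bcl2. Bak1 encodes the effector BAK, and Bid, Bcl2l11 (BIM), Bad, Bmf and Bik encode BH3-only proteins. The cells were 2 mouse tumour lines, MB49 from bladder cancer and KPC from pancreatic ductal adenocarcinoma, both given as wild type (WT) in the labels. The 12 libraries form 4 groups of 3: MB49 control, MB49 after 8 Gy of radiotherapy, KPC control and KPC after 8 Gy. Cells were grown in DMEM with fetal bovine serum, and treated cells were cultured for 48 h before collection, whereas the labels state no such time for control cells. The design text also names senescent cells of both lines, but the labels of each library give only control or 8 Gy. Each line stands for one culture model of its cancer, and nothing in the labels says whether the replicates were separate cultures, so every p-value here rests on the spread of these libraries alone, which may be technical.

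BCL2 family proteins set whether the outer mitochondrial membrane stays intact. Effectors such as BAK and BAX form pores that release cytochrome c and start the caspase cascade, guardians hold effectors and BH3-only proteins in check, and BH3-only proteins relay damage or stress by binding guardians or by activating effectors directly. Ionising radiation is a classical trigger of this pathway, and irradiated tumour cells that survive and stop dividing are often studied for their dependence on single guardians. These are background statements, and mRNA levels do not measure protein.

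Library totals ran from 19006015 to 26337950 estimated counts, and correlations within groups from 0.979 to 0.992. Sums of the marker lists of the labelled tissues overlapped between the controls of the lines. The 9 pancreatic duct markers summed to 1273 to 1499 CPM (counts scaled to the library total) in KPC controls and 1152 to 1429 in MB49 controls, with 2 at 0 in each, and most of it was Spp1. Among them Krt19 and Pdx1 were at 89.3 and 85.3 CPM in KPC controls and 4.36 and 19.7 in MB49 controls. The 11 urothelial markers summed to 26.3 to 32.8 CPM in MB49 controls, with 4 at 0, and 31.9 to 42.4 in KPC controls, with 3 at 0. The urothelial uroplakins were near absent from MB49 controls, with 0 counts of Upk1b, Upk2, Upk3a and Upk3b and 19 of Upk1a over 3 libraries. Of 22 immune cell markers, between 7 and 13 were at 0 in a group and the pan-leukocyte gene Ptprc had 0 or 1 count in every group. The summed level of the 22 was 266 to 297 CPM in MB49 controls, 462 to 509 after 8 Gy, 7.72 to 8.34 in KPC controls and 186 to 197 after 8 Gy, of which Cd68 made up most in both irradiated groups. In MB49 controls most of it was Flt3, at 213 CPM, which stood at 42.5 after 8 Gy, while Cd68 went from 71.5 to 445. In KPC control replicate 1, Rn18s-rs5, an rRNA gene, took 5.11% of counts, against at most 0.547% elsewhere. Member calls that change without that library are named below.

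After 8 Gy, the guardians Mcl1 and Bcl2l1 and the effector Bak1 rose in both lines, while Bcl2, Bid and Bik fell in both. The small KPC fall of Bid lost its call in 11 of 20 alternatives. In bulk RNA, a change in the share of cells that express a gene and a change per cell cannot be told apart. Called differences between the lines included BH3-only genes, Bak1 and Bcl2l2. Bcl2l11 rose 3.29-fold in MB49 cells, and Bmf fell 4.75-fold in KPC cells, with no called change of either gene in the other line. In MB49, 6 members rose, 3 fell and 1 was not called, where 66.9% of all tested genes were called (35.3% higher and 31.6% lower). In KPC, 3 rose, 5 fell and 2 were not called, where 63.3% of all tested genes were called (31.3% higher and 32.0% lower). Groups did not overlap for 8 members in MB49 and for 8 in KPC, against 67.3% and 69.7% of all tested genes. The median log2 change of the 10 members was 0.72 in MB49 and -0.22 in KPC, beside 0.04 and -0.01 over all tested genes.

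**Figure D1:**
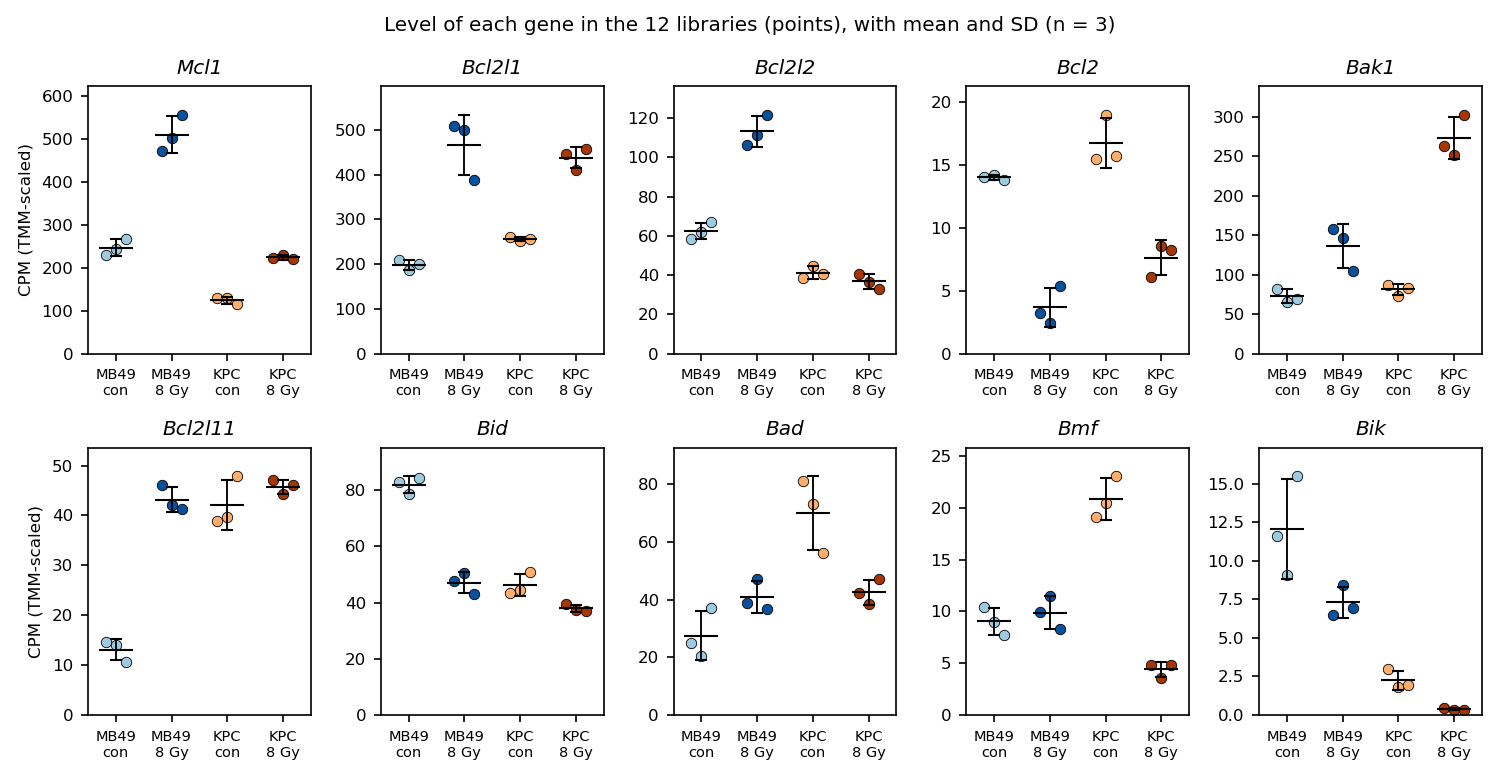
Level of each of the 10 genes in every library, in CPM scaled by TMM factors (vertical axis, from 0), for MB49 control, MB49 8 Gy, KPC control and KPC 8 Gy (horizontal axis). Points are libraries and bars the mean and SD (n = 3); Mcl1, Bcl2l1 and Bak1 are higher and Bcl2 is lower in all 3 irradiated libraries of each line than in the line's controls.

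Levels in CPM were scaled between libraries by TMM factors, which assume that most genes do not change. With library totals alone, the median change of all genes shifted by -0.28 on the log2 scale in MB49 and by -0.38 in KPC. The split of called genes then moved from 5066 higher and 4540 lower (52.7% higher) to 3819 and 5850 (39.5% higher) in MB49, and from 4490 and 4596 (49.4% higher) to 3085 and 6621 (31.8% higher) in KPC. Each change below is therefore relative to the typical gene. Members whose call or direction turned with library totals, or with RLE size factors (another scaling), are named where they are described.

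Mcl1 encodes a short-lived guardian that binds BAK and BIM. In MB49 controls it stood at 230.1, 243 and 268 CPM, and after 8 Gy at 472, 502 and 557 CPM. KPC controls had 129.7, 129.1 and 115.0 CPM, and KPC cells after 8 Gy had 222, 229.9 and 220.1 CPM. Every irradiated library lay above every control of its line, and KPC cells after 8 Gy stood just below the lowest MB49 control. The rise was 2.07-fold in MB49 (log2 1.05 ± 0.11 SE, adjusted p = 3.46e-07, where adjusted p values here and below come from the quasi-likelihood test of edgeR, with the Benjamini-Hochberg method applied over all tested genes) and 1.80-fold in KPC (log2 0.85 ± 0.11, adjusted p = 4.77e-06). Mcl1 was the one member whose 2 responses were not called different, at -0.20 ± 0.16 for KPC minus MB49 (95% interval -0.57 to 0.17, adjusted p = 0.33). That interval does not show that the lines responded alike. With library totals the KPC rise was smaller, at 0.46 (adjusted p = 0.00177).

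Bcl2l1 encodes BCL-XL, a guardian that binds BAX, BAK and most BH3-only proteins. It measured 209.7, 187 and 199 CPM in MB49 controls and 509.5, 500.5 and 388 CPM after 8 Gy. In KPC it measured 259.9, 251 and 257 CPM in controls and 446, 411 and 456 CPM after 8 Gy. Groups were separate in both lines, and MB49 replicate 3 after 8 Gy was the lowest of its group. The rise was 2.35-fold in MB49 (log2 1.23 ± 0.12, adjusted p = 1.3e-07) and 1.71-fold in KPC (log2 0.77 ± 0.12, adjusted p = 2.83e-05; 0.39 with library totals, adjusted p = 0.00271). The difference between the responses, -0.46 ± 0.17, passed narrowly (adjusted p = 0.0405) and was lost in 14 of 19 alternatives, with adjusted p up to 0.261. These included leaving out any 1 of 10 libraries, KPC control replicate 1 among them (-0.33, adjusted p = 0.129). Scaling by RLE size factors also lost the call (-0.40, adjusted p = 0.0849).

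The promoter windows of Mcl1, Bcl2l1 and Bcl2l11 shown here are those of the members that held a match to a motif searched for. As the motifs were chosen with the results known, this choice of windows is not independent of the responses. Bak1, which also rose in both lines, had no match in its window, nor did the other windows of Bcl2l1 and Bcl2l11. The sequences are RefSeq promoters on GRCm38.p6, the 250 bases before a start site, 5′ to 3′ on the gene's strand. Of the members, 9 matched the table, with 15 windows in all. Each window of 300 bases, reaching 50 bases past the start, was searched on both strands for 6 motifs chosen with the results known, and capitals mark a match.
Mcl1, chr3:95658471-95658720, plus strand: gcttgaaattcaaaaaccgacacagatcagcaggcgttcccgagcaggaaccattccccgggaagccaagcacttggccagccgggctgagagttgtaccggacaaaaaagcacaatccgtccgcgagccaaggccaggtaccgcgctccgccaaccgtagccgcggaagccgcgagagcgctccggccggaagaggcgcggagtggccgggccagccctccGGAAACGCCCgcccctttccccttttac
Bcl2l1, chr2:152830718-152830967, minus strand, one of 3 start sites: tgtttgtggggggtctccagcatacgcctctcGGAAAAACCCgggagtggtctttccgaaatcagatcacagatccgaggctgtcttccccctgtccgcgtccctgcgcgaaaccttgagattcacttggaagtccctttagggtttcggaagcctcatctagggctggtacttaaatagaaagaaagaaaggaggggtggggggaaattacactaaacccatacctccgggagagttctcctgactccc
Bcl2l11, chr2:128125788-128126037, plus strand, one of 2 start sites: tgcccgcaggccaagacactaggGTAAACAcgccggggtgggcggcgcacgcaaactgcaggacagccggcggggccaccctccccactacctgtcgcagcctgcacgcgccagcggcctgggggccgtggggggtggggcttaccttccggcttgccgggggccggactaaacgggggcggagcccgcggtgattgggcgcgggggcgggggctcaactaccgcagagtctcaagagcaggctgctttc
The capitals in Mcl1 and Bcl2l1 are a match, on the opposite strand, to the NF-kB pattern (GGG, any 2 bases, TTTCC), starting at base -28 and base -218 from the start site. That pattern is present in 1.63% of the 32851 RefSeq promoters. The capitals in Bcl2l11 are the FOXO pattern GTAAACA at base -227, present in 3.65% of promoters. No member window held the STAT pattern TTCNNNGAA (8.30% of promoters), the interferon element core (GAAA, any 2 bases, GAAA; 3.44%), the E-box CACGTG (7.15%) or the CREB and ATF element TGACGTCA (1.79%). No motif overlapped another in these windows. A match describes letters and says nothing of binding.

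Bcl2l2, which encodes the guardian BCL-W, changed in one line. Its levels were 58.3, 62.2 and 66.9 CPM in MB49 controls and 106, 111 and 122 CPM after 8 Gy. KPC controls had 38.6, 44.7 and 40.3 CPM and KPC cells after 8 Gy 40.4, 36.7 and 33.1 CPM. The MB49 groups were far apart, while the KPC groups overlapped. The log2 change was 0.86 ± 0.11 in MB49 (adjusted p = 4.08e-06; 0.56 with library totals, adjusted p = 0.000792) and -0.16 ± 0.12 in KPC (95% interval -0.43 to 0.10, adjusted p = 0.228). With library totals the KPC value was -0.55 and passed (adjusted p = 0.00113). The responses differed by -1.02 ± 0.16 (adjusted p = 9.77e-05). Its count was not whole in any library, and in the GRCm38 annotation its span overlaps Gm20521 on the same strand, which had 36, 151, 36 and 38 counts in MB49 control, MB49 8 Gy, KPC control and KPC 8 Gy. How many reads the counting shared between them was not tested.

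Bcl2, the founding guardian of the family, fell in both lines, where Mcl1 and Bcl2l1 rose. It stood at 14.0, 14.2 and 13.8 CPM in MB49 controls and at 3.22, 2.41 and 5.36 CPM after 8 Gy. KPC controls had 15.5, 19.0 and 15.7 CPM, and KPC cells after 8 Gy 6.05, 8.59 and 8.24 CPM. All irradiated libraries were below all controls. The fall was 3.80-fold in MB49 (log2 -1.93 ± 0.23, adjusted p = 9.4e-07) and 2.19-fold in KPC (log2 -1.13 ± 0.21, adjusted p = 0.000175). The responses differed by 0.79 ± 0.31 (adjusted p = 0.0468), a call lost in 11 of 19 alternatives with adjusted p up to 0.134, including the omission of any 1 of 8 libraries. With MB49 8 Gy replicate 2 left out the difference was 0.56 (adjusted p = 0.134), and without KPC control replicate 1 it was 0.84 (adjusted p = 0.0661). With library totals it was 0.69 and not called (adjusted p = 0.12).

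Bak1, the pore-forming effector among the members, rose in both lines and more in KPC. MB49 controls had 82.2, 65.7 and 69.6 CPM, and MB49 cells after 8 Gy 158, 146 and 104 CPM. KPC controls had 87.0, 72.8 and 83.5 CPM, and KPC cells after 8 Gy 263, 252 and 302 CPM. Controls of the 2 lines overlapped, and irradiated KPC libraries exceeded every other library. The rise was 1.88-fold in MB49 (log2 0.91 ± 0.15, adjusted p = 4.14e-05) and 3.36-fold in KPC (log2 1.75 ± 0.15, adjusted p = 2.52e-08). The difference of 0.84 ± 0.21 passed (adjusted p = 0.00387). Bak1 overlaps Ggnbp1 on the other strand, with 37, 71, 352 and 88 counts in the 4 groups in the order above. A further overlapping entry of Ggnbp1, named Gm50253 in the counts, had 0, 46, 216 and 58. Whether counting was stranded is not stated.

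**Figure D2:**
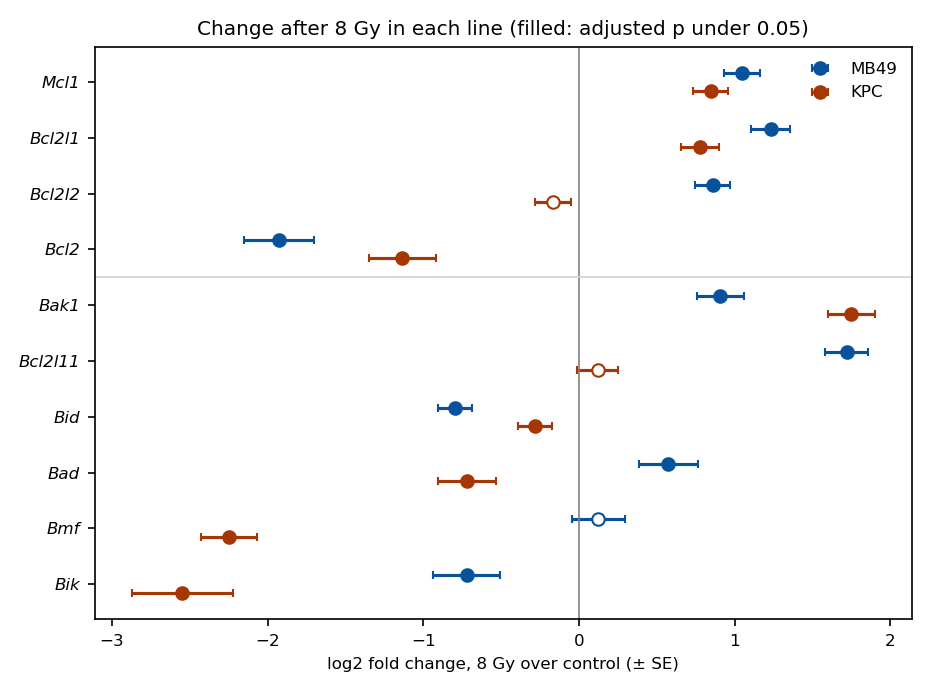
Log2 fold change after 8 Gy over control (horizontal axis) for each gene (vertical axis) in MB49 (blue) and KPC (brown). Points are edgeR estimates with SE over 3 libraries a group, filled where adjusted p is under 0.05 and open otherwise; Bcl2l11 stands at 1.72 in MB49 and 0.12 in KPC, Bmf at 0.12 and -2.25.

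Bcl2l11 encodes BIM, an activator BH3-only protein that binds all guardians and is a known target of FOXO factors. It measured 14.6, 14.0 and 10.6 CPM in MB49 controls and 46.0, 42.1 and 41.3 CPM after 8 Gy. In KPC it measured 38.9, 39.7 and 47.9 CPM in controls and 47.0, 44.2 and 46.0 CPM after 8 Gy. MB49 controls stood alone at the bottom, and irradiated MB49 cells fell within the range of the KPC libraries. The MB49 rise of 1.72 ± 0.14 on the log2 scale passed (adjusted p = 7.04e-09). The KPC value was 0.12 ± 0.13 (95% interval -0.18 to 0.42, adjusted p = 0.442), and it turned to -0.27 with library totals (adjusted p = 0.0898). The responses differed by -1.60 ± 0.19 (adjusted p = 4.4e-06).

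Bid encodes a BH3-only protein that caspase-8 cleaves, linking death receptors to mitochondria. It fell from 82.9, 78.5 and 84.4 CPM in MB49 controls to 47.7, 50.4 and 43.2 CPM after 8 Gy. KPC controls had 43.3, 44.6 and 50.7 CPM and KPC cells after 8 Gy 39.4, 37.5 and 36.9 CPM. MB49 controls were the high group, and the KPC groups were separate by a small margin. The log2 change was -0.80 ± 0.11 in MB49 (adjusted p = 5.33e-06) and -0.28 ± 0.11 in KPC (adjusted p = 0.0311). The KPC call was lost in 11 of 20 alternatives, with adjusted p up to 0.133, among them the omission of KPC control replicate 2 or 3 or of any KPC 8 Gy library. With library totals the KPC change was -0.67 (adjusted p = 3.93e-05). With RLE size factors it was -0.23 and not called (adjusted p = 0.0885). The responses differed by 0.51 ± 0.15 (adjusted p = 0.0125). Bid overlaps Bcl2l13 on the other strand, which had 8554, 6320, 6293 and 6648 counts in the 4 groups, and the part of these reads in the Bid counts was not tested.

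Bad encodes a sensitiser that binds BCL2, BCL-XL and BCL-W and is silenced by phosphorylation. It moved in opposite directions in the 2 lines. MB49 controls had 24.9, 20.6 and 37.1 CPM and MB49 cells after 8 Gy 39.0, 47.2 and 36.6 CPM. KPC controls had 81.0, 73.1 and 56.1 CPM and KPC cells after 8 Gy 42.1, 38.5 and 47.1 CPM. The MB49 groups overlapped through control replicate 3, while the KPC groups did not overlap. The log2 change was 0.57 ± 0.19 in MB49 (adjusted p = 0.0133) and -0.72 ± 0.19 in KPC (adjusted p = 0.00298; -1.10 with library totals, adjusted p = 6.33e-05). The responses differed by -1.29 ± 0.27 (adjusted p = 0.000971).

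The MB49 rise of Bad was the least stable of the called changes in that line. It was lost with library totals (0.28, adjusted p = 0.181) and without MB49 control replicate 1 (0.50, adjusted p = 0.0531), control replicate 2 (0.39, adjusted p = 0.0788) or 8 Gy replicate 2 (0.46, adjusted p = 0.0699). Without control replicate 3 it was 0.84 (adjusted p = 0.000234), and with an offset for gene length 0.38 (adjusted p = 0.031). The offset together with a block for replicate number gave 0.39 and lost the call (adjusted p = 0.0542). Short genes ran higher in irradiated MB49 libraries, and the eighth of genes with lengths like that of Bad had a median change of 0.34. Bad overlaps Gpr137 on the other strand, which had 1810, 3034, 3353 and 4043 counts in the 4 groups. The part of these reads in the Bad counts, which were not whole in any library, was not tested.

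Bmf encodes a BH3-only protein tied to the cytoskeleton and to loss of attachment. Its levels were 10.4, 8.98 and 7.77 CPM in MB49 controls and 9.90, 11.5 and 8.26 CPM after 8 Gy. KPC controls had 19.1, 20.5 and 23.0 CPM, and KPC cells after 8 Gy 4.81, 3.60 and 4.80 CPM. KPC controls were the highest group and irradiated KPC cells the lowest, with the overlapping MB49 groups between. The KPC fall was 4.75-fold (log2 -2.25 ± 0.18, adjusted p = 8.21e-09). The MB49 value was 0.12 ± 0.17 (95% interval -0.27 to 0.52, adjusted p = 0.53) and had no stable sign, at -0.18 with library totals (adjusted p = 0.356). The responses differed by -2.37 ± 0.25 (adjusted p = 1.19e-06), the largest difference among the 10 members.

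Bik encodes a BH3-only protein found mainly at the endoplasmic reticulum. It stood at 11.6, 9.09 and 15.5 CPM in MB49 controls and at 6.50, 8.44 and 6.95 CPM after 8 Gy. KPC controls had 2.95, 1.83 and 1.96 CPM, and irradiated KPC cells 0.447, 0.347 and 0.343 CPM, which rest on 9, 8 and 6 counts. The 4 groups did not overlap at all, in falling order from MB49 control to KPC 8 Gy. The log2 change was -0.72 ± 0.21 in MB49 (adjusted p = 0.00643) and -2.55 ± 0.32 in KPC (adjusted p = 2.55e-06), and the responses differed by -1.83 ± 0.40 (adjusted p = 0.00136). Bik is among the shortest eighth of genes, whose median change in MB49 was 0.64. With an offset for gene length its MB49 change was -1.22 (adjusted p = 4.79e-06) and the difference -1.21 (adjusted p = 0.00508).

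Across the members, 9 of 10 had a called difference between the responses of the lines, 3 higher and 6 lower in KPC, where 42.9% of all tested genes were called (20.9% higher and 22.0% lower). As the members were chosen with earlier results known, that count is a description and not a test of the family. The responses of Bak1, Bid and Bcl2 were the 3 that lay higher in KPC. For Bid and Bcl2 this was a smaller fall, and for Bak1 a larger rise. The 6 lower in KPC were Bcl2l1, Bcl2l2, Bcl2l11, Bad, Bmf and Bik. The median difference over the 10 was -0.74, beside -0.02 for all tested genes.

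Before irradiation the lines already differed. In controls, 4 members were higher in KPC than in MB49, 4 were lower and 2 were not called, where 67.3% of all tested genes were called (33.0% higher and 34.4% lower). Groups did not overlap for 9 members, against 68.6% of all tested genes. KPC controls had more Bcl2l11 (log2 difference 1.69 ± 0.14, adjusted p = 6.34e-09), Bad (1.35 ± 0.19, adjusted p = 7.69e-06), Bmf (1.20 ± 0.17, adjusted p = 5.98e-06) and Bcl2l1 (0.37 ± 0.12, adjusted p = 0.0134). They had less Bik (-2.42 ± 0.23, adjusted p = 5.76e-08), Mcl1 (-0.99 ± 0.11, adjusted p = 6.46e-07), Bid (-0.83 ± 0.11, adjusted p = 3.23e-06) and Bcl2l2 (-0.60 ± 0.12, adjusted p = 0.000182). Bcl2 (0.26 ± 0.21, 95% interval -0.22 to 0.73, adjusted p = 0.281) and Bak1 (0.16 ± 0.15, 95% interval -0.18 to 0.50, adjusted p = 0.35) were not called. The Bcl2l1 call was lost without MB49 control replicate 2 (0.32, adjusted p = 0.0571), and Bcl2 passed with an offset for gene length (0.58, adjusted p = 0.017). In this comparison the median was 0.50 for the shortest eighth of genes and -0.36 for the longest, so the differences above carry a length trend.

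After 8 Gy, 2 members were higher in KPC than in MB49, 5 were lower and 3 were not called, where 64.4% of all tested genes were called (31.0% higher and 33.4% lower). Groups did not overlap for 7 members, against 70.7% of all tested genes. Bcl2 (1.05 ± 0.23, adjusted p = 0.000722) and Bak1 (1.00 ± 0.15, adjusted p = 1.52e-05) were higher in irradiated KPC cells. Bik (-4.25 ± 0.30, adjusted p = 1.36e-09), Bcl2l2 (-1.62 ± 0.12, adjusted p = 1.68e-09), Mcl1 (-1.19 ± 0.11, adjusted p = 7.25e-08), Bmf (-1.17 ± 0.18, adjusted p = 2.2e-05) and Bid (-0.31 ± 0.11, adjusted p = 0.0193) were lower. The Bid call was lost in 7 of 20 alternatives, with adjusted p up to 0.242, among them the omission of MB49 8 Gy replicate 1 or 2 or KPC 8 Gy replicate 2 or 3. RLE size factors also lost it (-0.26, adjusted p = 0.0598). Bcl2l1 (95% interval -0.37 to 0.19, adjusted p = 0.527), Bcl2l11 (-0.22 to 0.39, adjusted p = 0.579) and Bad (-0.38 to 0.49, adjusted p = 0.802) were not called, and each took the other sign in at least 1 alternative. Bmf thus stood on opposite sides in the 2 comparisons, higher in KPC among controls and lower after 8 Gy. These comparisons use the same libraries as the responses, so they are not further evidence for them.

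**Figure D3:**
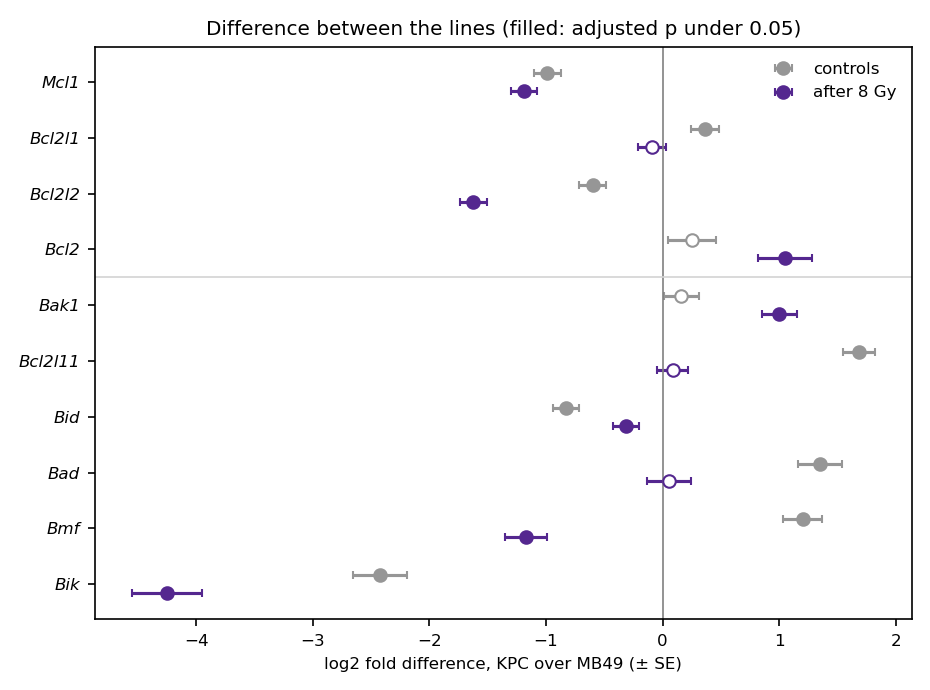
Log2 difference of KPC over MB49 (horizontal axis) for each gene (vertical axis) in controls (grey) and after 8 Gy (purple). Points are edgeR estimates with SE over 3 libraries a group, filled where adjusted p is under 0.05 and open otherwise; Bmf moves from 1.20 in controls to -1.17 after 8 Gy, and Bcl2l11 from 1.69 to 0.09.

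Levels of different genes were compared per length, as CPM per kilobase of the gene length in the deposited table. Bcl2l1 ranked first of the 10 in every group. In MB49 controls it had 77.3 ± 4.5 CPM per kilobase (SD, n = 3, here and below) and overlapped with Mcl1 at 72.3 ± 5.7. After 8 Gy they stood at 181 ± 26 and 149 ± 13, again overlapping. In KPC controls Bcl2l1, at 99.6 ± 1.8, stood clear of Bad at 48.2 ± 8.8 and Mcl1 at 36.4 ± 2.4. In irradiated KPC cells Bcl2l1, at 170.4 ± 9.3, was followed by Bak1 at 114 ± 11 and Mcl1 at 65.6 ± 1.5, with no overlap between them. Bcl2 was among the 3 lowest of the 10 in all groups, from 0.510 ± 0.212 in irradiated MB49 cells to 2.33 ± 0.27 in KPC controls.

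In the middle of the order, Bid was next in MB49 controls after Bcl2l1 and Mcl1, at 37.4 ± 1.4 CPM per kilobase, above Bak1 at 30.4 ± 3.6, with no overlap. Bad at 19.0 ± 5.9 and Bcl2l2 at 17.8 ± 1.2 overlapped there. In irradiated MB49 cells Bak1 took that place at 57.0 ± 11.8, and Bcl2l2 (32.3 ± 2.2) overlapped with Bad (28.2 ± 3.8), as did Bcl2l11 (8.57 ± 0.50) with Bik (7.75 ± 1.08). In KPC controls Mcl1 overlapped with Bak1 at 34.0 ± 3.1, and Bik at 2.39 ± 0.65 with Bcl2. Irradiated KPC cells ended with Bcl2 at 1.06 ± 0.19, overlapping with Bmf at 0.949 ± 0.150, and with Bik last at 0.402 ± 0.062.

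Among the 4 guardians, Bcl2l1 made up 45.7 ± 2.7% of the summed level per length in MB49 controls and 49.8 ± 5.8% after 8 Gy, and 66.4 ± 1.5% and 68.8 ± 1.7% in the KPC groups. Mcl1 made up 42.6 ± 2.2%, 41.2 ± 4.8%, 24.3 ± 1.2% and 26.5 ± 1.4% in the same order. For Bcl2l1, control and irradiated libraries of a line overlapped in this share, and every KPC library was above every MB49 library. The Bcl2 share fell from 1.15 ± 0.06% to 0.142 ± 0.064% in MB49 and from 1.55 ± 0.18% to 0.430 ± 0.085% in KPC. Among Bak1 and the 5 BH3-only genes, Bak1 went from 29.3 ± 3.3% to 45.3 ± 4.3% in MB49 and from 28.7 ± 2.2% to 66.6 ± 1.2% in KPC. Bad held the largest share in KPC controls, 40.5 ± 5.6%, and 17.1 ± 0.4% after 8 Gy. Bid held the largest in MB49 controls, 36.1 ± 2.6%, and 17.3 ± 1.2% after 8 Gy.

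**Figure D4:**
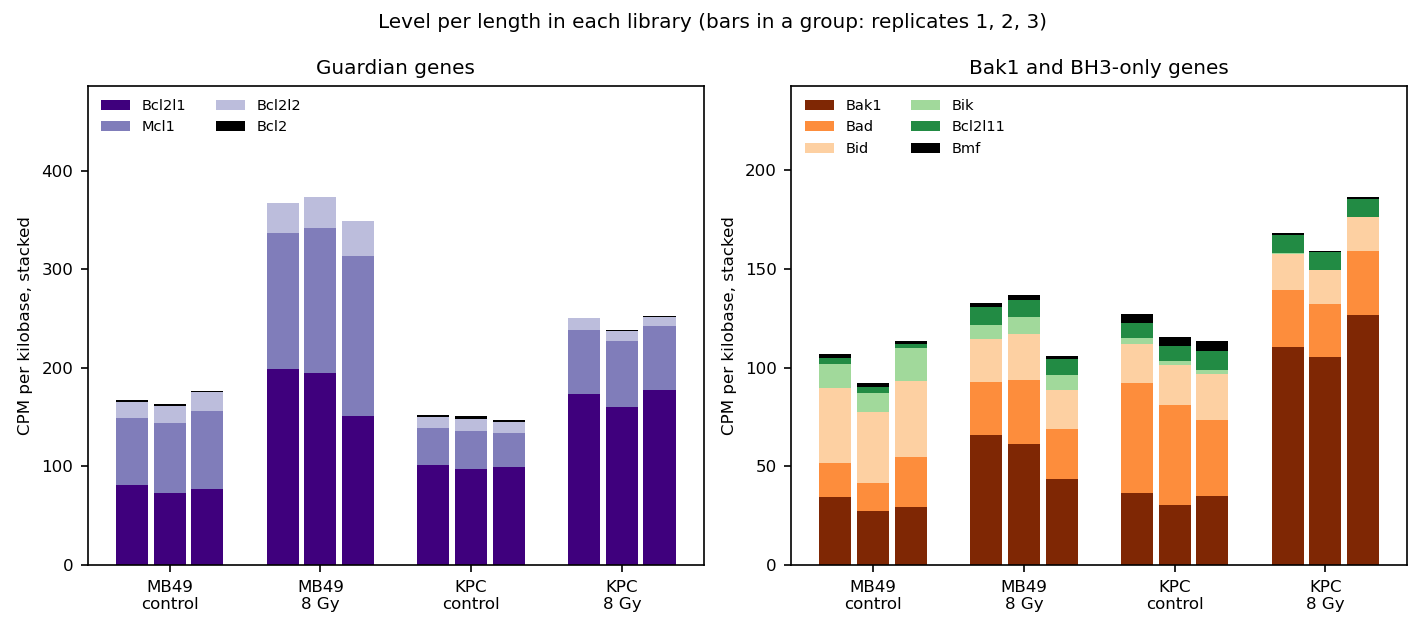
Level per length in CPM per kilobase (vertical axis, from 0), stacked by gene, for the guardians (left) and for Bak1 with the BH3-only genes (right). Each bar is 1 library, 3 to a group; the guardian stack is 163 to 177 in MB49 controls and 349 to 374 after 8 Gy, and 147 to 152 and 239 to 253 in KPC.

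The summed guardian level was 169 ± 7.0 CPM per kilobase in MB49 controls and 364 ± 13 after 8 Gy, and 150.1 ± 2.6 and 247 ± 7.6 in KPC. The summed level of the 5 BH3-only genes was 73.8 ± 10.0 and 68.1 ± 6.6 in MB49, and 84.6 ± 6.1 and 57.1 ± 3.2 in KPC. The ratio of the sums was 2.32 ± 0.22 in MB49 controls, 5.36 ± 0.35 after 8 Gy, 1.78 ± 0.10 in KPC controls and 4.34 ± 0.12 after 8 Gy. In every irradiated library this ratio, which leaves out Bak1, was above every control. With Bak1 added to the BH3-only genes, their sum was 104 ± 11 and 125 ± 17 in MB49, and 119 ± 7.3 and 171 ± 14 in KPC. With Bak1 counted, irradiated libraries would still be above the controls of their own line in the ratio. Every irradiated KPC library would then be below every MB49 control. These sums weigh the genes by mRNA alone and are given as a description, with no test. They cover the listed members only. Bbc3, which encodes the BH3-only protein PUMA, is not a member and was named after its values were seen. It stood at 103 ± 44 and 122 ± 18 CPM in the MB49 groups and 149 ± 3.1 and 166 ± 20 in the KPC groups. Its mean was above that of each BH3-only member in every group, so counting it would lower every ratio. Bbc3 was not called in either line (adjusted p = 0.334 and 0.551).

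Of the wider BCL2 family, 17 of 18 listed genes were found in the table by name and 11 were tested. In MB49, 3 rose and 3 fell, and in KPC 4 rose and 3 fell, with 4 called differences between the responses, 3 higher and 1 lower in KPC. Called in these comparisons were thus 6, 7 and 4 of 11 genes, beside 66.9%, 63.3% and 42.9% of all tested genes. The median change of the 11 was -0.04 in MB49 and 0.23 in KPC. Bax, which encodes the second main effector, went from 114 ± 22 to 259 ± 22 CPM in MB49 (log2 1.18 ± 0.16, adjusted p = 5.05e-06). In KPC it was 321 ± 71 in controls and 263 ± 15 after 8 Gy (-0.29 ± 0.16, adjusted p = 0.121). Its responses differed by -1.47 ± 0.23 (adjusted p = 6.7e-05), lower in KPC, where that of Bak1 was higher. Bax lies in the shortest eighth of genes, whose median change in MB49 was 0.64 and whose median difference between the responses was -0.72.

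Bnip3, a BH3-containing mitophagy receptor, rose in KPC from 17.7 ± 0.8 to 74.5 ± 5.9 CPM (log2 2.07 ± 0.13, adjusted p = 6.17e-10) and stood at 24.3 ± 3.9 and 26.8 ± 2.4 CPM in MB49 (0.14 ± 0.13, adjusted p = 0.356). Its responses differed by 1.93 ± 0.19 (adjusted p = 5.32e-07). Its relative Bnip3l rose in both lines, by 1.06 ± 0.13 in MB49 (adjusted p = 2.03e-06) and 1.06 ± 0.13 in KPC (adjusted p = 2.21e-06). Bok, an effector-like family member, fell by 0.62 ± 0.14 on the log2 scale in MB49 (adjusted p = 0.000957) and by 0.95 ± 0.14 in KPC (adjusted p = 1.34e-05). Pmaip1, which encodes the MCL1-binding BH3-only protein NOXA, had 4 counts summed over MB49 controls, 0 in irradiated MB49 cells, and 127 and 233 counts in the KPC groups (1.18 ± 0.27, adjusted p = 0.00137). It is one of the 3 called lower in MB49 (adjusted p = 0.0494), a call that rests on those 4 counts. Pmaip1 was named after its values were seen. Hrk, Bcl2a1a, Bcl2a1b, Bcl2a1d, Bcl2l10 and Bcl2l14 were too low to test, with 12 counts or fewer in each group.

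Downstream of the members, 15 genes of the apoptosome and of mitochondrial release were all tested. In MB49, 9 rose and 3 fell (median 0.66), and in KPC 6 rose and 2 fell (median 0.28), with 2 differences higher and 3 lower in KPC, beside the same shares of all tested genes (66.9%, 63.3% and 42.9%). Cycs, which encodes cytochrome c, rose in MB49 (0.67 ± 0.25, adjusted p = 0.0333, groups overlapping) and fell in KPC (-1.24 ± 0.26, adjusted p = 0.000917), a difference of -1.91 ± 0.36 (adjusted p = 0.000993). Cycs has processed copies in the genome, so its counts are uncertain. Bcap31, an endoplasmic reticulum protein cleaved by caspase-8, rose by 1.13 ± 0.13 in MB49 (adjusted p = 5.7e-07) and by 0.77 ± 0.13 in KPC (adjusted p = 4.59e-05).

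Of genes whose products act on the member proteins, 25 were found in the table and 24 tested. In MB49, 9 rose and 11 fell (median -0.24), and in KPC 7 rose and 8 fell (median -0.03), with 2 differences higher and 5 lower in KPC, again beside 66.9%, 63.3% and 42.9% of all tested genes. Mapk9, which encodes the kinase JNK2, rose from 29.8 ± 1.7 to 99.8 ± 9.2 CPM in MB49 (log2 1.74 ± 0.11, adjusted p = 6.7e-10) and from 44.7 ± 2.8 to 63.0 ± 4.5 CPM in KPC (0.50 ± 0.11, adjusted p = 0.000946), a difference of -1.25 ± 0.16 (adjusted p = 1.06e-05). Rps6ka1, which encodes a kinase that phosphorylates BAD, rose by 1.69 ± 0.13 in MB49 (adjusted p = 7.37e-09) and by 1.57 ± 0.13 in KPC (adjusted p = 1.85e-08). Fbxw7, which encodes a ubiquitin ligase subunit that targets MCL1, fell from 11.9 ± 0.7 to 4.97 ± 0.76 CPM in MB49 (-1.26 ± 0.17, adjusted p = 4.9e-06) and from 7.56 ± 0.67 to 3.94 ± 0.66 CPM in KPC (-0.93 ± 0.18, adjusted p = 0.000167).

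The genes whose patterns over the 12 libraries were nearest to a member were found by the root mean square difference of centred log2 CPM among 9698 genes with a mean of at least 5 CPM. Nearest to Mcl1 were Rnf14 (0.104), Gkap1 (0.127) and Insig2 (0.141), beside a median of 0.926 over all candidates. Nearest to Bcl2l1 were Tkfc (0.0956), Mboat7 (0.106) and Dusp10 (0.110), beside 0.754. Rnf14 stood at 59.0 ± 5.2, 128 ± 7.1, 30.3 ± 1.9 and 50.1 ± 2.5 CPM in MB49 control, MB49 8 Gy, KPC control and KPC 8 Gy, the order of the groups seen for Mcl1. Bcl2l11 had Ei24 (0.134), Ak1 (0.166) and Ulk1 (0.178) nearest to it, beside 0.944. Ei24 stood at 72.4 ± 6.6, 238 ± 7.4, 220.1 ± 32.0 and 246 ± 4.7 CPM in the same 4 groups, low in MB49 controls alone. Bcl2 had Nfib (0.213), Uri1 (0.255) and Qki (0.257) nearest to it, beside 1.07. These distances describe patterns in libraries that share their depth and scaling.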

How the data were processed

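Stranded mRNA libraries were made from TRIzol-extracted RNA, per the labels' protocols. The submitters' processing notes name fastp, HISAT2, StringTie and GRCm39 without order or version; the counting tool and its strand setting are not given in the sources used here. Deposited by the authors were estimated counts per gene, unscaled, with 6.20 to 8.65% of values per library not whole, and, per the file headers, a gene length in bases. Totals were 19006015 to 26337950 per library; the 525 rows with no symbol, 0.184 to 0.449% of counts, kept their identifier. No 2 libraries were identical.

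Counts were rounded, filtered with edgeR's filterByExpr by group (14362 genes kept) and scaled by TMM (factors 0.829 to 1.18). edgeR's robust quasi-likelihood model was fitted to all 12 libraries, with 1 coefficient per group and 8 residual degrees of freedom, and the common biological coefficient of variation was 0.150. The 5 contrasts were tested 2-sided, and genes were called where p, adjusted by Benjamini and Hochberg's method over all tested genes, was under 0.05. SEs are the fold change over the root of F. The script was tested on simulated data in which few genes changed or only a length trend was added. Those data do not cover scaling where most genes change. All 10 members are named; of the other lists, the genes with the largest called change at 5 CPM or more (up to 4 of the family, up to 3 of each other list), and the 3 nearest patterns to 4 members. One gene that this rule names is not reported here. Members, lists and motifs were chosen with earlier results of these data known. Alternatives were other scaling, no filter, DESeq2, the compared libraries only, an offset for gene length, a replicate block and each library left out. Overlapping genes came from the GRCm38 annotation by identifier. The software was edgeR 4.0.16, DESeq2 1.42.0 and limma 3.58.1 under R 4.3.3.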

Additional observations from a re-analysis of the deposited data

Results flagged for a closer look

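For 9 of the 10 members the change after 8 Gy differed between the lines by the test of the difference itself, beside 42.9% of all tested genes. The members were chosen with earlier results of these data known, so the 2 shares are not independent of that choice. The difference, KPC minus MB49 on the log2 scale, was -2.37 for Bmf, -1.83 for Bik, -1.60 for Bcl2l11, -1.29 for Bad, -1.02 for Bcl2l2 and -0.46 for Bcl2l1. It was 0.84 for Bak1, 0.79 for Bcl2 and 0.51 for Bid. Bad, Bmf and Bcl2l2 had estimates of opposite sign in the lines, and of these 3 only Bad was called in both. The calls for Bcl2l1 and Bcl2 were lost in 14 and 11 of 19 alternatives, while the differences kept their sign, at -0.57 to -0.33 and 0.56 to 1.19.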

How the results depend on the processing

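Over 50 estimates, 1 for each member and comparison, the alternatives gave 930 values with the same direction and side of the threshold, 49 that lost their call, 3 that gained one and 8 that reversed. None of the reversed values was called before or after. With library totals these were Bmf in MB49 after 8 Gy (-0.18), Bcl2l11 in KPC after 8 Gy (-0.27), and Bcl2l11 (-0.041) and Bad (-0.068) between irradiated lines. With no filter they were Bmf in MB49 (-0.0017) and Bcl2l1 between irradiated lines (0.0029). Bad between irradiated lines was -0.019 without MB49 8 Gy replicate 3 and -0.014 without KPC 8 Gy replicate 3, and at most 0.17 with any library left out. Leaving out each library in turn, the number of members called ranged from 8 to 9 in MB49, 7 to 8 in KPC, 7 to 9 for the difference, 7 to 8 between controls and 6 to 7 between irradiated lines. No count of called members or genes moved by more than 1.5 times in any alternative run. Equal replicate numbers showed no clear pairing, with correlations of deviations of 0.171, -0.178 and 0.0549 in MB49 and -0.116, -0.0233 and 0.0194 in KPC. Unequal numbers gave -0.21 to 0.126. With so few libraries this cannot show that they were unpaired. With the replicate block, 9, 7, 8, 8 and 7 members were called in the 5 comparisons, the KPC change of Bid (-0.28, adjusted p = 0.0588) and the difference for Bcl2l1 (-0.45, adjusted p = 0.052) being lost. Depth limits Bik in irradiated KPC cells, at 6 to 9 counts a library, and Pmaip1 in MB49. The causes of these changes were not tested.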
